A study of Mus musculus with 16 samples.

Results

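The comparison set 3 arrays of mouse dendritic cells exposed to Lactobacillus acidophilus NCFM for 10 h against 3 arrays of cells exposed for 4 h, 6 of the 16 arrays of the series. The arrays were taken by their labels alone, and the question was which transcripts changed between these times within cells that had all received bacteria. NCFM is a strain of a lactic acid bacterium of the gut that is sold as a probiotic, and it was given at 10 µg/ml. All cells came from the bone marrow of wild-type C57BL/6 mice and were grown for 8 days with GM-CSF at 15 ng/ml, a growth factor that turns marrow progenitors into dendritic cells together with macrophage-like and granulocytic cells. The immature cells that did not adhere were collected and kept with GM-CSF at 10 ng/ml, with or without bacteria. Control cells, which had GM-CSF but no bacteria, were measured at 4 h on 3 arrays and at 10 h on 2 arrays, and give here the background of time in culture. The 18 h groups entered only the shared estimate of the spread and the plot of levels by time. The labels number the replicates but do not say whether they came from separate mice or cultures. A p-value here therefore speaks of the spread between the samples measured, which may in part be technical.

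Dendritic cells read bacterial cell wall and nucleic acid through Toll-like and other pattern receptors, which switch on NF-kB, MAP kinases and interferon regulatory factors. A first wave of transcripts, among them Tnf, Ifnb1 and immediate early factors, is followed by genes that the secreted interferon beta turns on through its receptor and by feedback such as interleukin 10. Activated cells also stop taking up antigen, present more of it and shift their metabolism away from mitochondrial oxidation.

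The arrays had median intensities between 162 and 167, and intensity is the unit of every level below. Of 11 dendritic cell markers, 9 lay above the array median on all 6 arrays, Itgax, Flt3 and Zbtb46 included, and so did 10 of 10 macrophage and monocyte markers. So did 8 of 10 neutrophil, 4 of 7 mast cell and basophil, 3 of 6 T cell, 3 of 6 plasmacytoid, 2 of 6 B cell, 2 of 5 eosinophil, 2 of 4 erythroid, 1 of 6 stromal and 0 of 5 natural killer cell markers. The median was that of all probe sets of an array and is no threshold of detection. The share of all genes above it was not counted, so these counts do not show which cell types were present. In such bulk samples, fewer cells of a type and less RNA per cell cannot be told apart. The third 4 h array stood apart from its partners: 253 of 9097 brighter genes were at least 2-fold below both of them, against 0 and 82 genes on the others. The arrays numbered 1 differed from the rest at both times in Xist, the RNA that coats the inactive X, which lay at 8.53 and 7.94 on the log2 scale against at least 10.97 on the other 4 arrays, while Eif2s3y, a gene of the Y chromosome, was higher there. Each group holds 1 such array. By these sex-linked transcripts the arrays numbered 1 hold other material than the rest, so the spread within a group is not technical alone. Levels of a gene are listed below in the order of the array numbers 1, 2 and 3, and changes are log2 of 10 h over 4 h given with their standard error (SE), n = 3 against 3.

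Of 18193 genes, 1142 were called at an adjusted p under 0.05 in limma, which is 6.28% of the genes tested. The called genes were 437 that rose (2.4%) and 705 that fell (3.88%), so that 38.3% of the calls were rises. The split depended on the scaling, since centring on the spike-in probe sets moved the median change of all genes from 0.01 to -0.10 and left 262 rises among 1745 calls, or 15.0%. At least a 2-fold change was seen for 77 risen and 109 fallen genes, and at least a 4-fold change for 10 and 6. The arrays of the groups did not overlap for 1140 of the called genes, and for 22.1% of all genes (9.98% above and 12.1% below). Arrays with the same number deviated alike, and a fit that took the number as a block called 2291 genes (12.6%), with 899 rises (4.94%) and 1392 falls (7.65%). All 1142 were among them. The number of calls fell to 515 without the second 10 h array, to 525 without the third and to 677 without the third 4 h array, and 438 genes were called whichever single array was left out. In control cells limma called 0 genes (0.0%) over the same hours, with 553 at an unadjusted p under 0.05. With 3 arrays against 2, changes of control cells may have been missed.

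**Figure D1:**
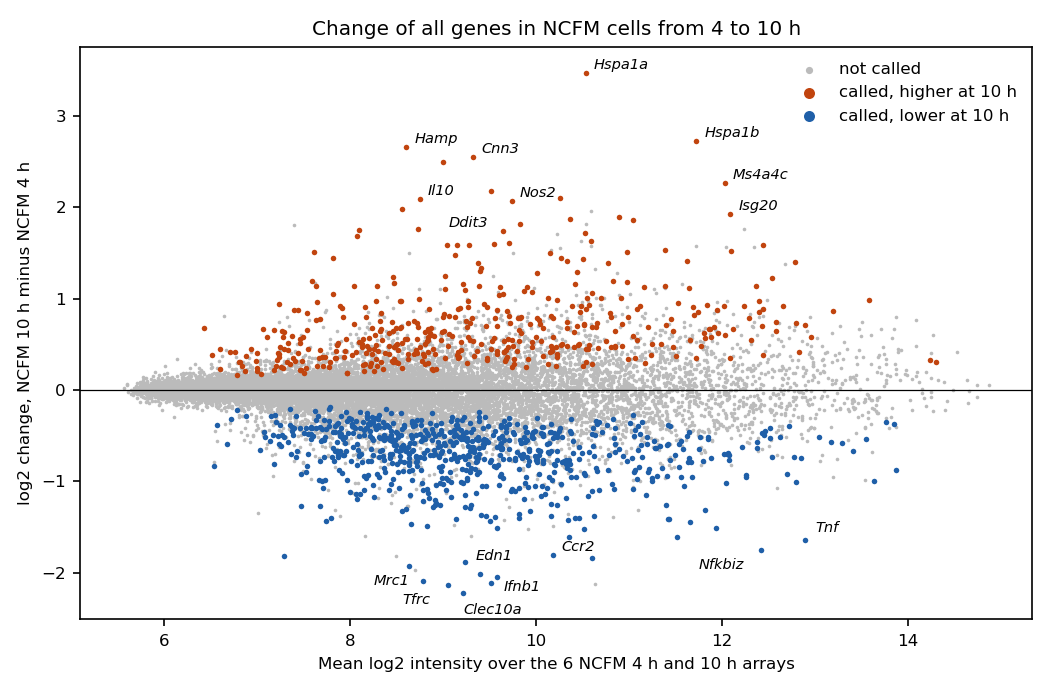
Change of each of 18193 genes between 4 and 10 h in NCFM cells (log2, vertical axis) against its mean log2 intensity over the 6 arrays (horizontal axis), with the 437 called rises in red, the 705 called falls in blue and all other genes in grey. Hspa1a lies highest, at 3.47, and Clec10a lowest among the called genes, at -2.22.

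The heat shock proteins, chaperones that hold and refold damaged proteins, contained the strongest rise of all called genes. Of 12 measured members 5 rose and 1 fell, with a median change of 0.46 against 0.01 for all genes. Hspa1a, an inducible Hsp70, measured 300, 603 and 489 at 4 h and 4231, 5794 and 4902 at 10 h. The groups lay far apart, and the lowest 10 h array was above the highest 4 h array. Control cells stayed between 143 and 193 at 4 h and at 181 and 227 at 10 h. The change was 3.47 ± 0.31, or 11.1-fold (adjusted p = 0.000159, limma). Its neighbour copy Hspa1b measured 1047, 1635 and 1339 at 4 h and 7816, 9229 and 9215 at 10 h, a change of 2.73 ± 0.24 (6.62-fold, adjusted p = 0.000159). The copies are nearly identical, so their probe sets may share signal. The RefSeq windows from 250 bases before to 50 bases after the start of the gene (build GRCm38.p6) were identical at 296 of 300 positions. The window of Hspa1a, chr17:34972107-34972406 on the minus strand, is shown because both copies rose together, with the 4 bases that differ in Hspa1b in capitals.
Hspa1a: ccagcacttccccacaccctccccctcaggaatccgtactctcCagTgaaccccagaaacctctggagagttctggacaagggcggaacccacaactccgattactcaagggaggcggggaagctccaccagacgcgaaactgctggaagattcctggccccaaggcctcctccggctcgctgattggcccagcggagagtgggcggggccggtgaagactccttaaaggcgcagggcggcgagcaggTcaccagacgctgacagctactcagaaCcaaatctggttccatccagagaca

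Hsph1, a large Hsp70 relative that helps Hsp70 release its client, measured 409, 526 and 515 at 4 h and 1537, 1349 and 1508 at 10 h. Its change was 1.61 ± 0.13 (3.04-fold, adjusted p = 0.000111), and the groups did not overlap. Of the Hsp40 co-chaperones, which hand clients to Hsp70, Dnaja1 rose by 0.86 ± 0.10 and Dnajb1 by 0.78 ± 0.11 (adjusted p = 0.000395 and 0.00127). Hspa4, another large relative, went the other way. Its levels were 1662, 1411 and 1877 at 4 h and 1117, 1055 and 1181 at 10 h, a change of -0.55 ± 0.15 (adjusted p = 0.0484), and the call was lost without any 1 of 5 arrays, the second 4 h array being the exception (adjusted p up to 0.168). The mitochondrial chaperonin pair did not pass: Hspd1 had -0.42 ± 0.18 (adjusted p = 0.245) and Hspe1 0.67 ± 0.39 (adjusted p = 0.425). On the third 4 h array Hspe1 measured 1415, against 4943 and 4226 on its partners. The promoter window of Hsph1, chr5:149636287-149636586 on the minus strand, holds, on the strand opposite to the one printed, a match to the heat shock element, GAA, TTC and GAA each 2 bases apart (capitals, bases 37 to 49 after the start).
Hsph1: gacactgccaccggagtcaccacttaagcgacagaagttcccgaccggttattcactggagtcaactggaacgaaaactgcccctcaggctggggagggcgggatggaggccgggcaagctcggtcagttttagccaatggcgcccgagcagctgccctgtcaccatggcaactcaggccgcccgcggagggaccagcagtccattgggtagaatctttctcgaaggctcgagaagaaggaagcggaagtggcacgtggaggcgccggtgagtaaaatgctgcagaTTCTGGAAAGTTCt

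Both strands were searched for this motif, which was added to the search after the values were seen, and 0.603% of all 32851 windows hold it. Among the windows of the heat shock list it was found in 4 of 15, those of Hspd1 and Hspe1, whose windows overlap, and 2 overlapping windows of Hsph1.

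Ddit3, which encodes the stress factor CHOP, measured 410, 510 and 403 at 4 h and 1390, 1582 and 1421 at 10 h. All 10 h arrays lay above all others, and control cells measured between 549 and 673. The change was 1.74 ± 0.12 (3.33-fold, adjusted p = 4.65e-05), while a second probe set gave 0.51 and was not called. Of the 21 genes of the unfolded protein and integrated stress response Ddit3 rose (the block fit called 4 rises, with Dnajb9, Atf4 and Edem1), and Herpud1 and Sel1l, which serve the removal of misfolded proteins from the endoplasmic reticulum, fell by 0.54 and 0.37. The call of Sel1l was lost without any 1 of 5 arrays, the first 10 h array being the exception (adjusted p up to 0.179). Ddit4, an inhibitor of the growth kinase mTORC1, measured 341, 437 and 274 at 4 h and 864, 2480 and 1759 at 10 h, a change of 2.18 ± 0.37 (adjusted p = 0.00506). The first 10 h array was the lowest of its group and still above the 4 h arrays. Control cells lay at 683 to 1155 at 4 h, above the NCFM cells of that time. Gadd45g, a growth arrest gene, rose by 1.59 ± 0.28 (adjusted p = 0.00529).

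**Figure D2:**
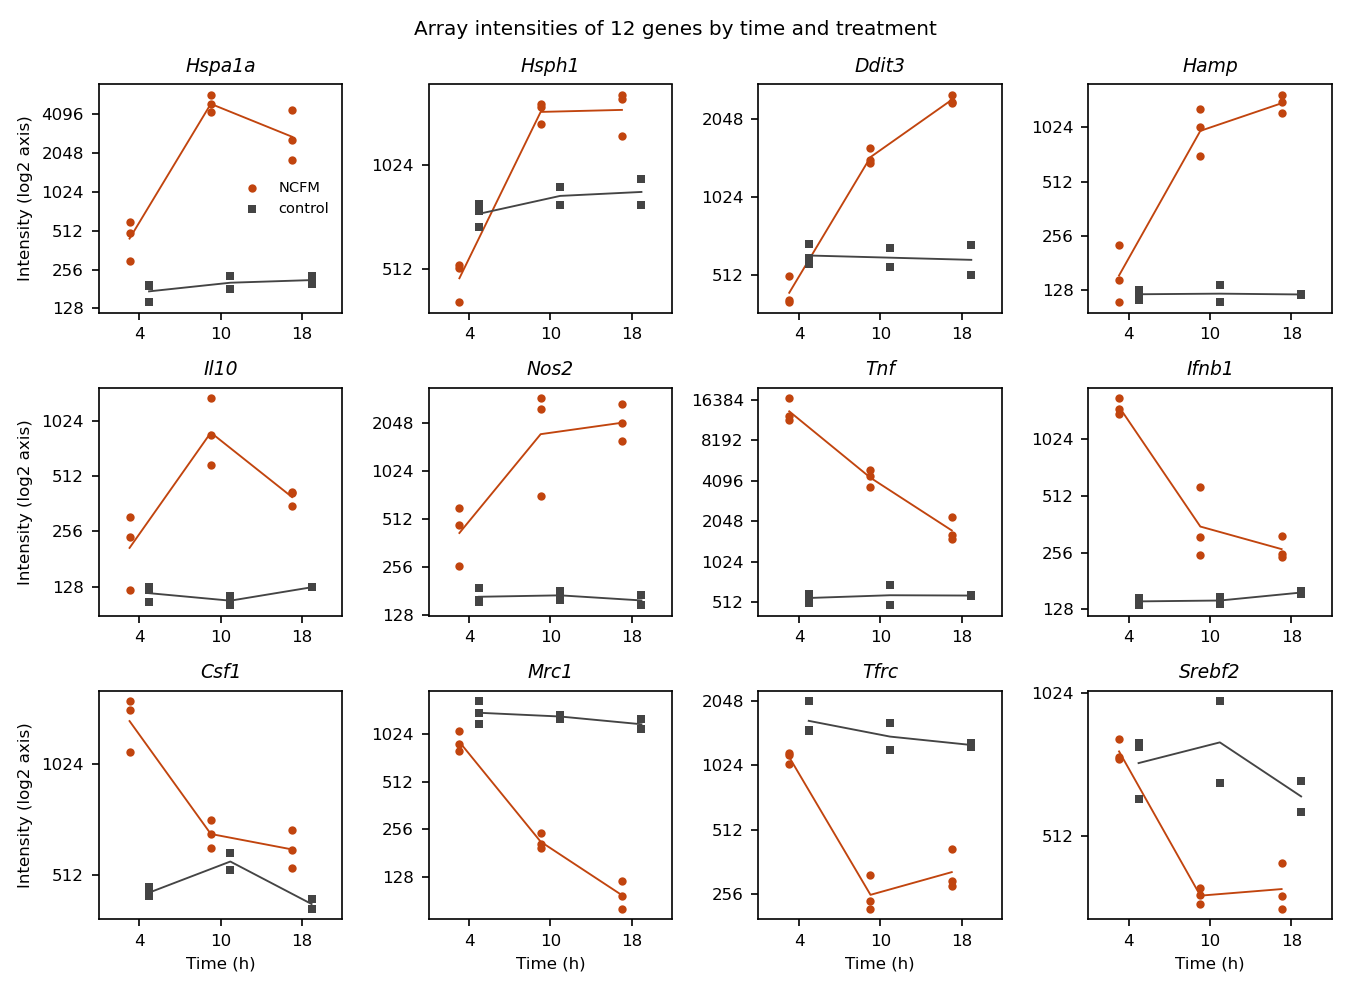
Intensity (log2 axis) of 12 genes in NCFM cells (circles) and control cells (squares) at 4, 10 and 18 h, 1 point per array, with lines through the means of the log2 values; the times are evenly spaced and not to scale. Hspa1a rises from 300 to 603 at 4 h to between 4231 and 5794 at 10 h, and Tnf falls from between 11525 and 16875 to between 3688 and 4908.

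Of 25 measured cytokine genes Il10 rose and 6 fell, Tnf among them, with a median of -0.07. That median was -0.24 without the first 10 h array and -0.16 without the first 4 h array, and -0.18 with spike-in centring. Tnf, the first cytokine that such cells release, measured 11525, 12513 and 16875 at 4 h and 3688, 4408 and 4908 at 10 h. The groups did not overlap, and the 10 h level was still above the 482 to 685 of all 5 control arrays. Its change was -1.64 ± 0.18 (3.12-fold lower, adjusted p = 0.000381). Ifnb1, the interferon beta gene, measured 1396, 1690 and 1484 at 4 h and 567, 249 and 308 at 10 h, a change of -2.11 ± 0.23 (4.32-fold lower, adjusted p = 0.000366). Control cells measured 134 to 148. None of the 7 other type I interferon genes measured was called (0 higher and 1 lower at an unadjusted p under 0.05, the same limma fit), and since these copies are nearly identical their probe sets may share signal. The Ifnb1 window, chr4:88522745-88523044 on the minus strand, is shown for the NF-kB site of this promoter. It holds a match to the kB core, GGG and TTCC 3 bases apart (capitals, bases 116 to 107 before the start), a motif found in 5.56% of all windows and, on either strand, in 6 of 24 windows of the cytokine list.
Ifnb1: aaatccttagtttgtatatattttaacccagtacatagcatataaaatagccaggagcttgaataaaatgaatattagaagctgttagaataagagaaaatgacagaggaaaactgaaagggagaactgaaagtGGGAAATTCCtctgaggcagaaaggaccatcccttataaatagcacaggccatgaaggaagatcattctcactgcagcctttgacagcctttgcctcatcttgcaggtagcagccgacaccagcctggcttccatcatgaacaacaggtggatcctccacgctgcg

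Il10, an anti-inflammatory cytokine, measured 123, 240 and 306 at 4 h and 592, 862 and 1369 at 10 h, against 101 to 127 in control cells at these times. It rose by 2.09 ± 0.31 (4.26-fold, adjusted p = 0.00236), and every 10 h array lay above every 4 h array. Il23a, the subunit specific to interleukin 23, measured 267, 450 and 363 at 4 h and 173, 116 and 111 at 10 h, a change of -1.43 ± 0.22 (adjusted p = 0.00241). Csf1, the macrophage growth factor, measured 1514, 1434 and 1105 at 4 h and 723, 664 and 606 at 10 h. It fell by 1.01 ± 0.12 on the log2 scale (adjusted p = 0.000492), and its levels approached those of control cells at 10 h, 590 and 528. Tgfb1, an inhibitory cytokine, fell by 0.86 ± 0.18 and Csf3, the granulocyte growth factor, by 0.83 ± 0.22 (adjusted p = 0.0141 and 0.0435). Lif fell by 0.52 ± 0.11 (adjusted p = 0.0161). Of these, Tgfb1 lost its call without the second 4 h or the third 10 h array (adjusted p up to 0.0618), Lif without the second array of either time (up to 0.0802), and Csf3 without any array but the first 4 h array (up to 0.152). The list had 3 falls without the second 4 h array and 4 without the second or the third 10 h array. Other probe sets gave -0.15 for Tgfb1, 0.00 for Lif and between -1.09 and -0.21 for Csf1.

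Several cytokines with very high levels did not pass the test. Il6 measured 15314, 17329 and 19695 at 4 h and 12994, 12550 and 13802 at 10 h, a change of -0.41 ± 0.32 (adjusted p = 0.599), and the groups did not overlap. Il12b, the subunit shared by interleukins 12 and 23, had -0.13 ± 0.35 (adjusted p = 0.912), and its groups overlapped. Il1b measured 12208, 16853 and 19515 at 4 h and 15513, 7885 and 8060 at 10 h. Its first pair rose by 0.35 while the others changed by -1.10 and -1.28, so the fit gave -0.68 ± 0.65 (adjusted p = 0.686). Il18 had 0.77 ± 0.24 (adjusted p = 0.0848), and was called with the replicate block (adjusted p = 0.0197).

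Chemokines, which recruit leukocytes, moved in both directions. Of 24 measured, Cxcl11 and Ccl8 rose and Ccl3 and Ccl4 fell. Ccl4 measured 16646, 21130 and 16771 at 4 h and 9309, 7745 and 10283 at 10 h, a 2-fold fall (SE 0.21 on the log2 scale, adjusted p = 0.0148). Ccl3 changed by -0.87 ± 0.19 (adjusted p = 0.0205). Cxcl11, an interferon-induced ligand of Cxcr3, rose by 0.67 ± 0.17 and Ccl8 by 0.65 ± 0.13 (adjusted p = 0.0368 and 0.0101). Neither Ccl3 nor Ccl4 was called without the second array of either time, and Ccl3 also not without the third (adjusted p up to 0.0935 and 0.0741). Cxcl11 lost its call without the first or the third 4 h or second or the third 10 h array (up to 0.147), and Ccl8 without the third 10 h array (0.0522). Cxcl10, another Cxcr3 ligand, lay between 15349 and 20370 on all 6 arrays (-0.09 ± 0.44, adjusted p = 0.96). Ccl5 measured 14743, 16231 and 10034 at 4 h and 22183, 22878 and 23062 at 10 h, and missed the threshold (0.76 ± 0.26, adjusted p = 0.113).

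Transcription factors and feedback inhibitors changed in both directions. Egr1, an immediate early factor, measured 848, 1307 and 2254 at 4 h and 305, 353 and 357 at 10 h, a change of -2.01 ± 0.31 (4.02-fold lower, adjusted p = 0.00254). At 10 h it lay below the control arrays of that time, 399 and 462. Of 24 immediate early factors Egr1, Klf2 and Btg2 fell and none rose, with a median of -0.19, and Btg2 lost its call without the third 4 h or second or the third 10 h array (up to 0.0878). Nfkbiz, a nuclear IkB protein that works with NF-kB on secondary response genes, measured 8426, 9368 and 12914 at 4 h and 3911, 2267 and 2998 at 10 h. It fell by 1.75 ± 0.31 on the log2 scale (adjusted p = 0.00589), and all of its 3 probe sets were called. Of 19 NF-kB subunits and inhibitors Nfkbiz and Nfkbid fell and Nfkbib rose, while the block fit called 3 rises and 3 falls. The call of Nfkbib was lost without any 1 of the 6 arrays (adjusted p up to 0.121). Nfkbid lost its call without the second or the third array of either time (adjusted p up to 0.152). Dusp1, a phosphatase that switches off MAP kinases, measured 1200, 1419 and 2326 at 4 h and 4592, 4241 and 4910 at 10 h, and rose by 1.53 ± 0.27 (2.89-fold, adjusted p = 0.00599). Batf, an AP-1 family factor, rose from 823, 1065 and 772 to 3091, 2704 and 2413 (1.63 ± 0.14, adjusted p = 0.000159). Cebpd fell from 1899, 2569 and 2470 to 683, 726 and 867 (-1.60 ± 0.20, adjusted p = 0.000748), while its other probe set gave -0.27. Of the receptors and adaptors that feed these factors, Ticam1 rose and 3 of 25 fell. The call of Ticam1 (0.41) was lost without the second or the third array of either time (up to 0.0966). The fallen ones were Sting1 (-0.95 ± 0.14) and Cgas (-0.80 ± 0.14), which form the cytosolic DNA sensing pathway, and Myd88 (-0.54 ± 0.12), the common Toll-like receptor adaptor (adjusted p = 0.00249, 0.00495 and 0.0247). Myd88 lost its call without the third 4 h, first 10 h or second 10 h array (adjusted p up to 0.106).

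Interferon-stimulated antiviral effectors were already high at 4 h, and part of them rose further. Of 30 measured, 5 rose and none fell, and the block fit called 10 rises and 0 falls. The median was 0.29 in NCFM cells, and 0.27 in control cells, where no member was called. It was 0.15 without the third 10 h array and 0.50 without the first. Isg20, a nuclease that degrades viral RNA, measured 2295, 3022 and 1610 at 4 h and 8085, 8091 and 9296 at 10 h, a rise of 1.92 ± 0.27 (3.79-fold, adjusted p = 0.00149). Bst2, which tethers budding virus, measured 3298, 4738 and 2120 at 4 h and 9241, 9581 and 10218 at 10 h, and rose by 1.59 ± 0.25 (adjusted p = 0.00295). Herc6, the ligase that attaches Isg15 in mice, rose by 1.12 ± 0.16 (adjusted p = 0.00187). Phf11d and Zbp1, a sensor of nucleic acid in the Z form, rose by 0.92 ± 0.21 and 0.91 ± 0.21 (adjusted p = 0.0221 and 0.0227). Phf11d kept its call only without the first 10 h array (adjusted p up to 0.0874), and Zbp1 only without the second array of either time (up to 0.0961). The list had 3 rises without the first or the third 4 h array or the third 10 h array, and 1 fall without the first 4 h array. Irf7, the factor that amplifies interferon production, measured 3365, 4127 and 4266 at 4 h and 8429, 9362 and 9718 at 10 h. It rose by 1.23 ± 0.31 (adjusted p = 0.0342), but no call remained when any 1 array was left out (adjusted p up to 0.118), and control cells changed by 0.67. None of 8 interferon-inducible GTPases was called in the limma fit (3 higher and 0 lower at an unadjusted p under 0.05). Iigp1, which attacks the vacuoles of parasites, had 0.70 ± 0.30 (adjusted p = 0.236) and was called with the block (adjusted p = 0.0187). The interferon response element core, GAAA and GAAA 2 bases apart, was found on either strand in 12 of 26 promoter windows of the antiviral list, which belong to 11 genes, Bst2 among them, and in 3.44% of all windows.

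The machinery of MHC class I, which loads peptides for display to killer T cells, held rises and no falls. Of 13 measured members 6 rose and none fell, against 2.4% rises over all genes. All 13 had a change above 0, as did 9453 of all 18193 genes, and the median was 0.37 against 0.06 in control cells. No member was called in the test of the difference from control cells, and 4 were higher with the block. Psmb10, an immunoproteasome subunit, measured 3444, 4989 and 3369 at 4 h and 6296, 8543 and 8219 at 10 h, a rise of 0.98 ± 0.20 (adjusted p = 0.0137). The partner subunits Psmb9 and Psmb8 rose by 0.79 ± 0.13 and 0.58 ± 0.12, and the activator Psme1 by 0.74 ± 0.08 (adjusted p = 0.00461, 0.0123 and 0.000381). B2m, the light chain, rose by 0.31 ± 0.05 (adjusted p = 0.00396), from between 17897 and 18530 to between 22034 and 22882, and Tapbpl, a peptide editor, by 0.29 ± 0.06 (adjusted p = 0.0169). The list had 4 rises without the third 4 h, second 10 h or the third 10 h array. Psmb10 lost its call without any of those (adjusted p up to 0.0673), Psmb8 without the third 4 h array (0.0528), and Tapbpl without the first or second 4 h or second or the third 10 h array (up to 0.0634). Of 12 inflammasome genes, which process interleukin 1 and trigger pyroptosis, Casp1 and Gsdmd rose and the DNA sensor Aim2 fell; the block fit called 6 rises and 2 falls. Gsdmd, the pore protein, measured 1703, 1806 and 1896 at 4 h and 2459, 2745 and 2688 at 10 h, a rise of 0.55 ± 0.10 (adjusted p = 0.00693). Casp1 rose by 0.86 ± 0.23 (adjusted p = 0.0474), a call lost without the first or second 4 h or second or the third 10 h array (up to 0.182). Aim2 fell by 0.59 ± 0.13 (adjusted p = 0.0197), a call lost without the second or the third 4 h or first or second 10 h array (up to 0.0753). Nlrp3, the sensor of the best known inflammasome, had -0.60 ± 0.22 (adjusted p = 0.155) and was called with the block (adjusted p = 0.0429).

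**Figure D3:**
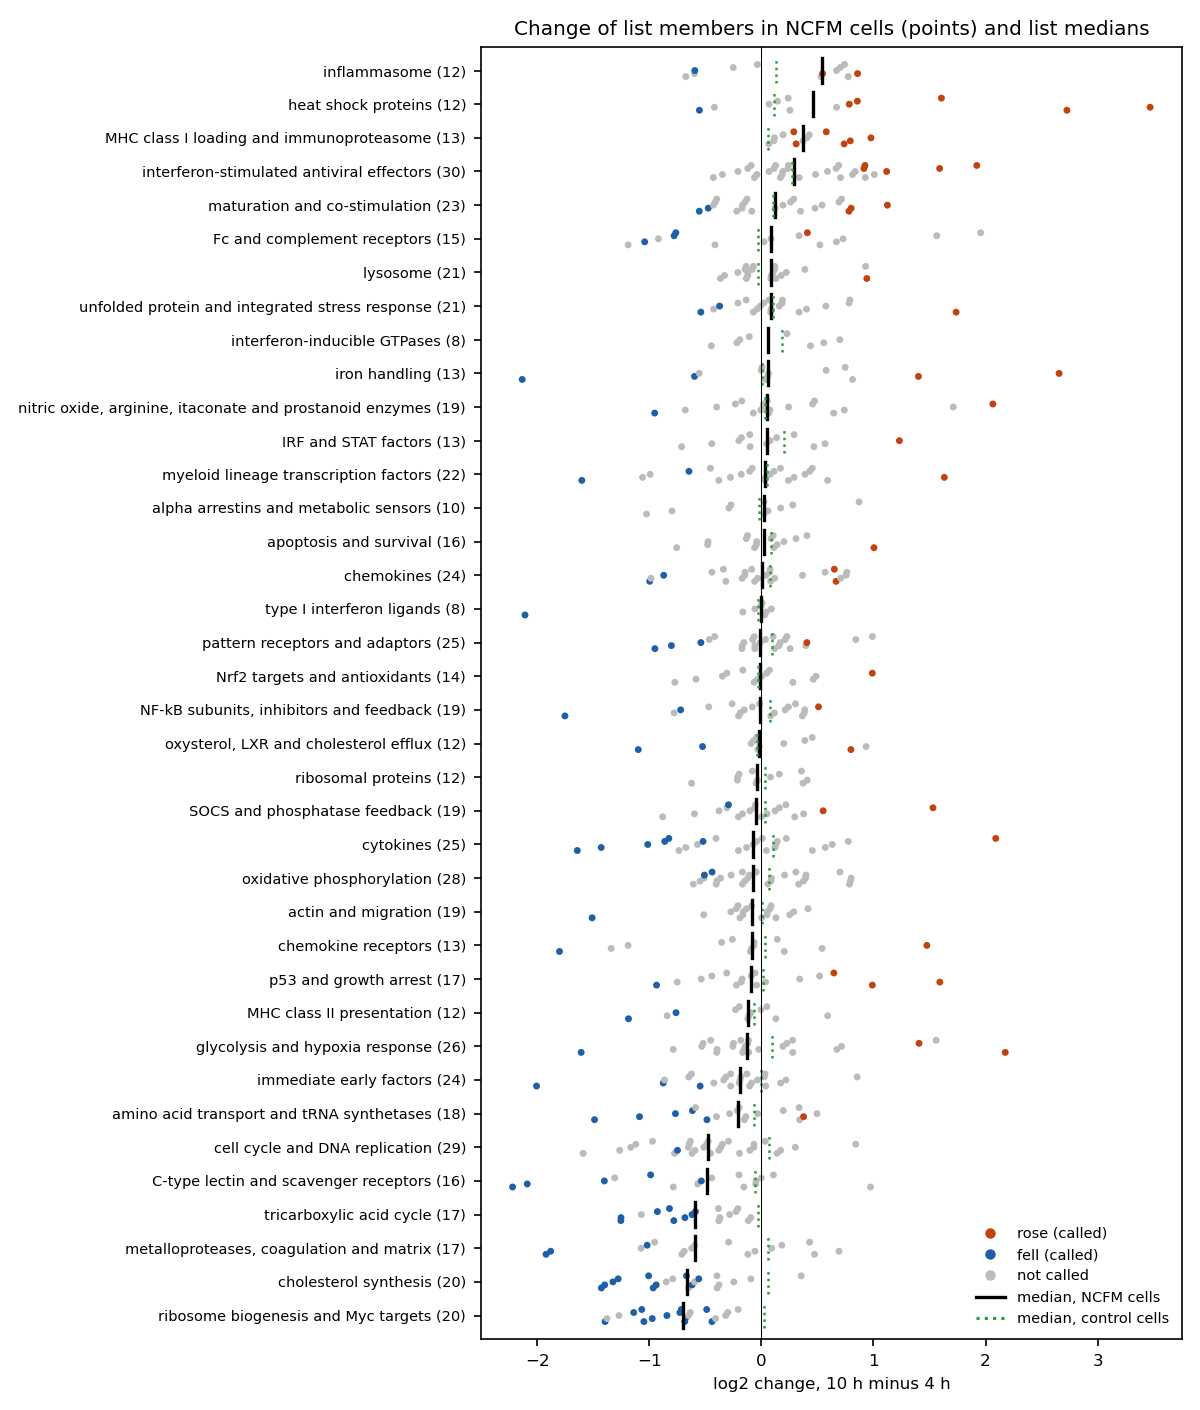
Change between 4 and 10 h (log2) of each measured member of 38 gene lists in NCFM cells, 1 point per gene, with the number measured beside the list's name; red and blue points were called, black bars are medians in NCFM cells and dotted green bars medians in control cells. The medians run from -0.70 for ribosome biogenesis to 0.54 for the inflammasome list, whose points lie on both sides of 0.

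Iron and nitric oxide genes held some of the largest rises. Hamp, which encodes hepcidin, the hormone that closes the iron exporter ferroportin, measured 146, 229 and 111 at 4 h and 707, 1282 and 1027 at 10 h. The 10 h arrays lay far above the rest, since control cells measured 110 to 137 at both times. It rose by 2.66 ± 0.24 (6.31-fold, adjusted p = 0.000166). Its window, chr7:30943980-30944279 on the minus strand, is shown because it holds 2 neighbouring matches (capitals), to the STAT site TTCNNNGAA (bases 97 to 89 before the start) and to the AP-1 site TGANTCA (bases 87 to 81 before it). These motifs are found in 8.30% and 7.81% of all windows, on either strand.
Hamp: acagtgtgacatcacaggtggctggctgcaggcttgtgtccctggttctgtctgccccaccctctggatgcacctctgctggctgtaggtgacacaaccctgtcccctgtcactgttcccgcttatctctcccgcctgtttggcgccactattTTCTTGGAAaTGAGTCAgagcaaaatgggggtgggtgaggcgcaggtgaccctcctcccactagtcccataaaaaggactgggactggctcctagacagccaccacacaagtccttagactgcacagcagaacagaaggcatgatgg

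Tfrc, the transferrin receptor that takes up iron, went the other way, from 1147, 1037 and 1172 at 4 h to 314, 239 and 219 at 10 h. It fell by 2.14 ± 0.18 on the log2 scale (4.39-fold lower, adjusted p = 0.000159) and lay far below control cells at 10 h, 1618 and 1200. Its other probe sets gave -0.55 and -0.06. Lcn2, a protein that withholds iron from bacteria, rose by 1.40 ± 0.26 (adjusted p = 0.00682). Aco1, whose protein regulates iron-responsive transcripts, fell by 0.60 ± 0.13 (adjusted p = 0.0171), a call lost without the first or the third 4 h or second or the third 10 h array (up to 0.081). These were the 2 rises and 2 falls among 13 iron genes, and the block fit called 5 and 2. Nos2, the inducible nitric oxide synthase, measured 258, 598 and 471 at 4 h and 717, 2524 and 2946 at 10 h. The first array was the lowest of each group. It rose by 2.07 ± 0.45 (4.19-fold, adjusted p = 0.0192), and the call was lost without the first 4 h, second 10 h or the third 10 h array (up to 0.0912). Alox5ap, which feeds leukotriene synthesis, fell from 6885, 7299 and 6354 to 4256, 3258 and 3175 (-0.95 ± 0.13, adjusted p = 0.00108). Ptgs2, the inducible cyclooxygenase, had -0.07 ± 0.28 (adjusted p = 0.942), and Ptges, the prostaglandin E synthase, 1.71 ± 0.55 (adjusted p = 0.0981), called with the block (adjusted p = 0.00932).

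Biosynthetic lists held falls and no rises. Of 20 ribosome biogenesis genes and Myc targets 12 fell and none rose, against 3.88% falls over all genes. All 20 had a change below 0, as did 8737 of all 18193 genes, and the median was -0.70 against 0.02 in control cells. Fbl, which methylates ribosomal RNA, measured 2329, 2536 and 2028 at 4 h and 1258, 739 and 707 at 10 h, a fall of 1.40 ± 0.26 on the log2 scale (adjusted p = 0.0073). Ncl, or nucleolin, measured 4777, 3754 and 4903 at 4 h and 2078, 2089 and 2286 at 10 h (-1.05 ± 0.10, adjusted p = 0.000262). Nolc1, Ddx21 and Utp20, which also serve the making of ribosomes, fell by 1.14 ± 0.16, 1.07 ± 0.12 and 0.97 ± 0.09 (adjusted p = 0.00154, 0.000408 and 0.000159). The third 4 h array, where many genes were low, was the highest of its group for Ncl and the lowest for Fbl. Of the ribosomal proteins themselves 0 of 12 were called in the limma fit, 0 higher and 1 lower at an unadjusted p under 0.05, with a median of -0.04 and 1 fall in the block fit.

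Cholesterol synthesis was the second such group. Of 20 measured genes 10 fell and none rose, against 3.88% falls over all genes. A change below 0 was seen for 19, as for 8737 of all 18193 genes, and the median was -0.66 against 0.06 in control cells. Srebf2, the transcription factor that governs the pathway, measured 819, 744 and 751 at 4 h and 385, 397 and 369 at 10 h, a fall of 1.01 ± 0.14 on the log2 scale (adjusted p = 0.00175). Both groups were tight, and control cells at 10 h measured 982 and 660. Of the enzymes, Cyp51 measured 991, 999 and 1734 at 4 h and 494, 416 and 428 at 10 h (-1.43 ± 0.22, adjusted p = 0.0029). Sc5d fell by 1.40 ± 0.21, Fdps by 1.33 ± 0.23 and Sqle by 1.28 ± 0.25 (adjusted p = 0.00255, 0.00514 and 0.0104). Hmgcs1, at the entry of the pathway, fell by 0.94 ± 0.19 (adjusted p = 0.0111), a call lost without the second or the third 10 h array (up to 0.054). Fdft1 fell by 0.97 ± 0.18 (adjusted p = 0.00818). Idi1 and Dhcr7 did not pass (-0.65 ± 0.23 and -0.40 ± 0.15, adjusted p = 0.128 and 0.178). The second probe set of Fdps gave -0.04, and those of Sc5d -0.49 and -0.13. In the oxysterol and efflux list of 12 genes, with 3 rises and 2 falls in the block fit, Nr1h3, the sterol receptor LXR alpha, rose by 0.80 ± 0.16, and Scd2, a fatty acid desaturase, fell by 1.10 ± 0.20 (adjusted p = 0.0123 and 0.0065). Lpcat3 fell by 0.53, a call lost without the third 4 h or second or the third 10 h array (up to 0.0686). The call of Nr1h3 was lost without the second or the third 10 h array (up to 0.0629).

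Of 17 genes of the tricarboxylic acid cycle 8 fell and none rose, against 3.88% falls over all genes. All 17 had a change below 0, as did 8737 of all 18193 genes, and the median was -0.59 against -0.03 in control cells. The block fit called 13 falls. The isocitrate dehydrogenases led. Idh1, the cytosolic enzyme, measured 3081, 3867 and 6113 at 4 h and 2162, 1605 and 1545 at 10 h (-1.25 ± 0.32, adjusted p = 0.0404). Idh3a, the catalytic subunit of the mitochondrial enzyme, had the same change (-1.25 ± 0.32, adjusted p = 0.041), while 3 other probe sets gave -0.21 to 0.05. Idh3g fell by 0.93 ± 0.16, Idh2 by 0.82 ± 0.18 and Suclg2 by 0.78 ± 0.08 (adjusted p = 0.00522, 0.0197 and 0.000381). Cs, citrate synthase, had -0.38 ± 0.13 (adjusted p = 0.118) and was called with the block (adjusted p = 0.0455). The list had 4 falls without the second or the third 10 h array, and 5 without the second or the third 4 h array. Idh1 and Idh3a were among the calls lost without the second or the third array of either time (up to 0.143 and 0.152), Idh3a also without the first 4 h array. Idh2 lost its call without the first 4 h or second or the third 10 h array (up to 0.081). Of 28 oxidative phosphorylation genes Ndufv1 and Sdha fell, none rose, and the median was -0.08. In the block fit 2 rose and 6 fell, and spike-in centring gave 7 falls. Neither call held without the second or the third 10 h array, and Ndufv1 was also lost without the second or the third 4 h and Sdha without the first 10 h array (up to 0.0947 and 0.0827). On the third 4 h array this list lay 0.54 log2 units below its partners, and its median was -0.25 without that array and 0.11 without the first 4 h array.

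**Figure D4:**
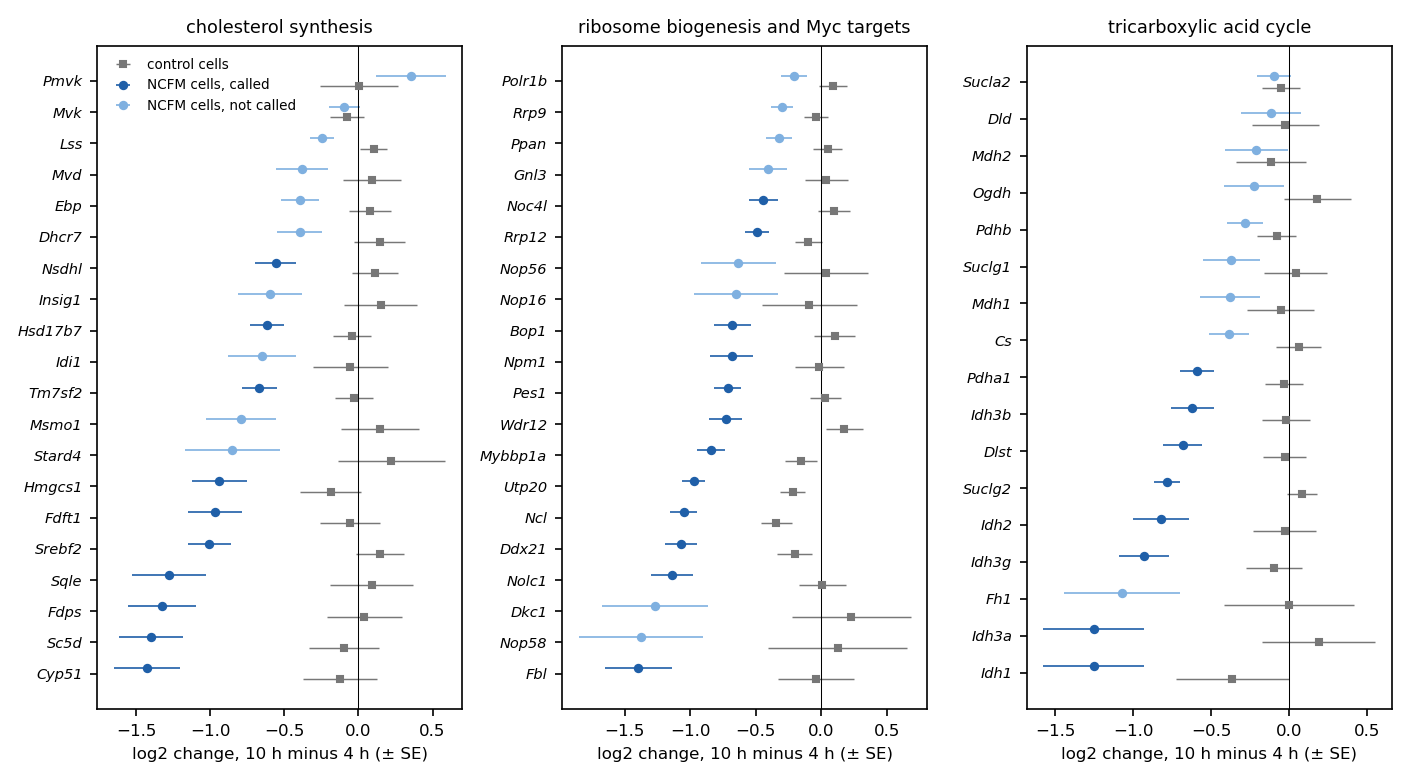
Change between 4 and 10 h (log2 ± SE) of each measured gene for cholesterol synthesis, ribosome biogenesis and the tricarboxylic acid cycle, in NCFM cells (circles, dark where called) and in control cells (squares). The called members lie between -1.43 and -0.44, and Pmvk, at 0.35, is the only one of these 57 genes above 0 in NCFM cells.

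Of 18 transporters and transfer RNA synthetases 5 fell and 1 rose (8 and 2 with the block). Iars, the isoleucine synthetase, measured 932, 657 and 721 at 4 h and 344, 261 and 222 at 10 h, a fall of 1.49 ± 0.18 on the log2 scale (2.81-fold lower, adjusted p = 0.000659). Slc1a5, a glutamine carrier, fell by 1.09 ± 0.18 (adjusted p = 0.00428), while its second probe set gave 0.00. Wars, the tryptophan synthetase, which interferon induces, rose by 0.38 ± 0.10 (adjusted p = 0.0466), a call lost without any 1 array (up to 0.157). Hadh, an enzyme of fatty acid oxidation, measured 1459, 1217 and 1202 at 4 h and 596, 418 and 374 at 10 h (-1.51 ± 0.15, adjusted p = 0.000318). Gcsh, of the glycine cleavage system, fell from 785, 651 and 593 to 324, 209 and 213 (-1.46 ± 0.19, adjusted p = 0.00107). Of 26 genes of glycolysis and the hypoxia response (3 rises and 2 falls with the block) Hk3, a hexokinase of blood cells, rose by 1.41 ± 0.22 (adjusted p = 0.00295) and Ddit4 rose, as above. Egln3, an oxygen sensor, fell by 1.61 ± 0.40 (adjusted p = 0.0355), a call kept only without the first 4 h array (up to 0.13 otherwise). Pfkfb3, which drives glycolysis, measured 510, 802 and 887 at 4 h and 1194, 2371 and 3279 at 10 h (1.56 ± 0.58, adjusted p = 0.157) and was called with the block (adjusted p = 0.00295). Among 29 cell cycle genes Cdk4 fell (-0.75 ± 0.13, adjusted p = 0.00577), and the block fit called 7 falls. The single call is near the 3.88% of all genes that fell. The median of that list was -0.48, and moved to -0.19 without the first 4 h array, where it lay 0.91 log2 units above its partners.

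Of 16 C-type lectins and scavenger receptors 5 fell, none rose and 11 were not called, with a median of -0.49 against -0.06 in control cells. In the block fit 6 fell and Marco rose (0.97, adjusted p = 0.0218). Mrc1, the mannose receptor, measured 799, 885 and 1076 at 4 h and 196, 206 and 244 at 10 h, and control cells 1183 to 1646. It fell by 2.09 ± 0.16 on the log2 scale (4.26-fold lower, adjusted p = 0.000111), with -2.03, -2.10 and -2.14 in the 3 pairs. Clec10a, a lectin for galactose, measured 1557, 1352 and 1012 at 4 h and 334, 294 and 214 at 10 h (-2.22 ± 0.31, 4.66-fold lower, adjusted p = 0.00159). Clec4a2, an inhibitory lectin, fell by 1.40 ± 0.18, Scarb1, a receptor for high density lipoprotein, by 0.99 ± 0.17, and Clec4n, the fungal receptor Dectin-2, by 0.54 ± 0.10 (adjusted p = 0.000879, 0.00458 and 0.00599). Itgax, which encodes the dendritic cell integrin CD11c, measured 5478, 4515 and 4149 at 4 h and 3135, 2730 and 2371 at 10 h (-0.78 ± 0.16, adjusted p = 0.0145), a call lost without the first 4 h or second or the third 10 h array (up to 0.0709). Itgax was the only 1 of 11 dendritic cell markers called (2 falls with the block). Of the 11, 5 had a change above 0 and 6 below, with a median of -0.10 against -0.05 in control cells. Marker lists of neighbouring cell types were counted beside the lectins and scavenger receptors. Of 10 neutrophil markers the granule genes Mmp8, Prtn3, Mpo and Elane fell, by 1.02, 0.79, 0.73 and 0.65 (5 falls with the block). The other 6 were not called, and 3 of the 10 had a change above 0. The median was -0.47 against 0.17 in control cells, and no member was called in the difference from control cells. In the fit of only the groups compared none of the 4 that fell was called. Mmp8 lost its call without the third 4 h or any 10 h array, and Mpo without the second or the third 4 h or the third 10 h array (up to 0.0686 and 0.081). The list had 2 falls without the third array of either time. The summed level of that list ran from 16966 to 42024 at 4 h and from 16498 to 37096 at 10 h, and no marker was at 0. Of 10 macrophage markers none was called in the limma fit (1 higher and 0 lower at an unadjusted p under 0.05, and 2 rises and 2 falls with the block), and the sums ran from 63703 to 100870 and from 56240 to 84920. Their part in the fall of the receptors was not tested.

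Of 15 Fc and complement genes 3 fell and Serping1 rose. Cfp, or properdin, measured 5842, 5316 and 5737 at 4 h and 3363, 3261 and 3318 at 10 h (-0.76 ± 0.09, adjusted p = 0.000422), while its second probe set gave 0.03. Cd93 fell by 1.04 ± 0.14 (adjusted p = 0.00118), with other probe sets between -1.32 and 0.04. The block fit called 5 rises and 6 falls, among the rises Fcgr4, an activating Fc receptor, at 490, 983 and 1008 at 4 h and 1538, 4013 and 4597 at 10 h (1.96 ± 0.67, adjusted p = 0.121, with the block 0.000376), and Cfb, complement factor B (1.56 ± 0.54, adjusted p = 0.121, with the block 0.000271). In both genes the first array was the lowest at each time. In antigen presentation through MHC class II, 2 of 12 genes fell (4 with the block), H2-Ob (-1.19 ± 0.22) and H2-DMa (-0.76 ± 0.16), which edit the loading of peptides (adjusted p = 0.00773 and 0.0158), and H2-DMa lost its call without the first or second 4 h or second or the third 10 h array (up to 0.0747). Cd74, the invariant chain, stayed between 20613 and 24112 (-0.12 ± 0.06, adjusted p = 0.323).

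Of 23 maturation and co-stimulation genes 3 rose and 2 fell. Cd200, an inhibitory surface ligand, measured 1486, 1342 and 1875 at 4 h and 3108, 3429 and 3634 at 10 h (1.12 ± 0.19, adjusted p = 0.00425). Il15ra, which presents interleukin 15, rose by 0.80 ± 0.21 and Cd86, a ligand of Cd28, by 0.78 ± 0.21 (adjusted p = 0.0435 and 0.0476). Tnfsf9, which binds 4-1BB, fell by 0.55 ± 0.15 and the adhesion molecule Icam1 by 0.47 ± 0.11 (adjusted p = 0.043 and 0.0211). Cd86 lost its call without any 1 array (up to 0.158), Il15ra without any but the first 10 h array (up to 0.178), Tnfsf9 without any but the first 4 h array (up to 0.149), and Icam1 without the third 4 h or second or the third 10 h array (up to 0.0942). Cd40 had 0.48 ± 0.18 (adjusted p = 0.167) and Ccr7, the lymph node homing receptor, 0.54 ± 0.37 (adjusted p = 0.521). Of the chemokine receptors, Ccr2, which guides monocytes, measured 2587, 1576 and 2504 at 4 h and 923, 406 and 642 at 10 h, a fall of 1.80 ± 0.32 on the log2 scale (3.49-fold lower, adjusted p = 0.00589). Cxcr4 rose by 1.48 ± 0.38 (adjusted p = 0.0389), a call lost without any 1 array (up to 0.124); its 10 h levels, 884 to 967, lay below the 1588 and 2087 of control cells.

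The 20 largest rises and 20 largest falls among called genes with separated arrays include more genes of other kinds. Rhov (1.68) and Batf (1.63), and Cited2 (-1.44) and Il23a (-1.43), lay just outside. Of the 40 genes, 33 kept the call whichever array was left out. Of the 20 risen genes 19 lay above every control 10 h array on all 10 h arrays, while of the 20 fallen genes 6 lay above and 12 below. The share of all genes so placed was not counted. The 40 genes were chosen on the same NCFM arrays, and control cells had only 2 arrays at 10 h. Cnn3, an actin-binding calponin, measured 336, 257 and 216 at 4 h and 1759, 1470 and 1443 at 10 h (2.55 ± 0.32, adjusted p = 0.000822), and all of its 6 probe sets were called. Ms4a4c, a membrane protein of the Ms4a family, measured 1509, 2104 and 2200 at 4 h and 6758, 9954 and 11490 at 10 h (2.26 ± 0.30, adjusted p = 0.00118). Plat, tissue plasminogen activator, rose from 180, 231 and 298 to 682, 807 and 878 (1.76 ± 0.19, adjusted p = 0.000366), though a second probe set gave 0.19. Among the other rises were Fstl1, a secreted glycoprotein (1.98 ± 0.36), Plaat3, a phospholipase (1.89 ± 0.27), Plac8 (1.86 ± 0.26), the cystatin Cst7 (1.82 ± 0.22) and the ring finger gene Rnf225 (1.75 ± 0.23). The calls of Pde7b, Fabp3, Kctd14 and Ifi213 (2.49, 2.10, 1.87 and 1.72) were lost without some single arrays, the second 10 h array in each of them (up to 0.0973, 0.106, 0.0936 and 0.14). For Pde7b, Fabp3 and Ifi213 so did leaving out the first or the third 4 h or the third 10 h array, for Ifi213 also the second 4 h array, and for Kctd14 the second or the third 4 h or first 10 h array. Other probe sets of Pde7b gave 0.12 and 0.64, and that of Fabp3 -0.03.

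Edn1, the vessel-constricting peptide endothelin, measured 893, 1118 and 1547 at 4 h and 335, 275 and 335 at 10 h (-1.88 ± 0.17, 3.69-fold lower, adjusted p = 0.000159). Ereg, a ligand of the epidermal growth factor receptor, measured 138, 360 and 504 at 4 h and 80, 83 and 87 at 10 h (-1.81 ± 0.33, adjusted p = 0.00667), and its first 4 h array was low. F3, tissue factor, fell by 1.92 ± 0.45 (adjusted p = 0.027), a call lost without the second or the third array of either time (up to 0.113). Tfec, a relative of the lysosomal regulator Tfeb, measured 2252, 2902 and 3928 at 4 h and 1281, 731 and 603 at 10 h (-1.84 ± 0.27, adjusted p = 0.00191). Rasgef1b fell by 1.52 ± 0.23 and the long transcript A630072M18Rik by 2.04 ± 0.38 (adjusted p = 0.00236 and 0.00727). Coro1a, an actin regulator of leukocytes, measured 7216, 5391 and 7458 at 4 h and 3872, 1866 and 1734 at 10 h (-1.51 ± 0.28, adjusted p = 0.00776), with other probe sets at -1.57 and 0.00.

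Whether these changes exceeded those of control cells was tested as a difference of changes. The test called 92 genes (0.506% of all), 36 with a higher and 56 with a lower change in NCFM cells. Of the 92, 90 were also called within NCFM cells. Both tests use the same NCFM arrays and the same change, so this overlap was largely built in and is no separate support. The block fit called 457 (2.51%). The count fell to 12 without the first 10 h control array, to 16 and 19 without the second and the third 4 h control arrays, and to 24, 29, 42 and 58 without the second and the third 10 h and the second and the third 4 h NCFM arrays; it rose to 180 without the first 10 h NCFM array and to 163 without the second 10 h control array. Of the 40 genes with the largest changes, which were chosen on the same NCFM arrays, 15 were called. The largest positive differences were those of Hspa1a (3.25 ± 0.46), Hamp (2.65 ± 0.37), Hspa1b (2.63 ± 0.36), Cnn3 (2.59 ± 0.48), Rnf225 (1.91 ± 0.34) and Plat (1.81 ± 0.28), with adjusted p between 0.0125 and 0.0379. The largest negative ones were those of Ifnb1 (-2.13 ± 0.34), Mrc1 (-2.01 ± 0.25), Edn1 (-1.93 ± 0.25), Tfrc (-1.89 ± 0.27), Cited2 (-1.83 ± 0.32) and Emilin2 (-1.75 ± 0.30), with adjusted p between 0.00854 and 0.0317. Cited2, a transcriptional co-regulator, measured 4123, 5069 and 7204 at 4 h and 1688, 2006 and 2225 at 10 h. Emilin2, a matrix glycoprotein, measured 2089, 2225 and 2095 at 4 h and 703, 841 and 851 at 10 h. Of the lists, heat shock proteins had 4 members with a higher change than in control cells. Cytokines had 2 with a lower one (3 with the block, and 1 higher), and C-type lectins and scavenger receptors 1 (6 with the block). Ribosome biogenesis, cholesterol synthesis and the tricarboxylic acid cycle had 1 each with a lower one, Utp20, Srebf2 and Suclg2; with the block these lists had 7, 2 and 4. The lists of type I interferons, pattern receptors, Fc and complement genes, and metalloproteases also had 1 lower member each. Iron genes and myeloid factors had 1 in each direction, and the unfolded protein list 1 higher one. The lists of MHC class I, antiviral effectors and inflammasome genes had no called member (4, 2 and 2 higher with the block).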

How the data were processed

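RNA from each sample was hybridised to 1 array, and the authors deposited 1 table of linear intensity for 45101 probe sets, whole numbers from 42 to 31573. Normalization, background correction and genome build are not given in the sources used here; array quartiles in the deposited intensities are nearly equal. Gene names came from the platform annotation (34945 probe sets with 1 gene, 932 with several, 9160 without an entry, 64 control probe sets) and RefSeq names. Each of 18193 genes was represented by its brightest probe set (mean of 16 arrays), 9010 of which have several.

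Log2 intensities were fitted with limma 3.58.1 in R 4.3.3, 1 mean per group over all 16 arrays (10 residual degrees of freedom, 8 with the replicate number as a block). Tests were two-sided, with Benjamini-Hochberg adjustment over all genes. The labels' replicate numbers paired the samples: deviations from group means of same-number arrays correlated at 0.57, 0.30 and 0.45, those of different numbers at -0.54 to 0.14. The number of arrays limits the precision. The genes named are the 20 largest rises and 20 largest falls among called genes whose arrays do not overlap, the 6 largest of each sign in the difference from control cells, and members of 38 pathway and 11 cell type lists (736 of 811 genes measured). The members and lists were chosen with earlier results of these data known. Alternatives changed the normalization, background, probe set choice, dim-gene filter, variance model, arrays and threshold. RefSeq promoter windows existed for 604 of 756 named or listed genes, and 9 motifs were searched. Plots used matplotlib 3.10.9 under Python 3.11.15.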

Additional observations from a re-analysis of the deposited data

Results flagged for a closer look

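The change from 4 to 10 h differed between NCFM and control cells for 92 genes in the limma test of the difference itself. Of the stress and iron genes, the difference (log2, NCFM minus control) was 3.25 for Hspa1a, 2.63 for Hspa1b, 1.43 for Hsph1, 0.74 for Dnaja1, 1.77 for Ddit3, 2.65 for Hamp and -1.89 for Tfrc. For secreted and signalling genes it was -1.71 for Tnf, -2.13 for Ifnb1, -1.29 for Csf1, -1.93 for Edn1, 1.81 for Plat, -0.866 for Cfp and -1.15 for the DNA sensor Cgas. Among transcription regulators it was 1.39 for Batf, -1.68 for Cebpd, -1.83 for Cited2 and -1.15 for Srebf2. For metabolic and ribosome genes it was -1.55 for Gcsh, -1.25 for Hadh, -0.865 for Suclg2 and -0.755 for Utp20. Further genes were Mrc1 at -2.01, Emilin2 at -1.75, Cnn3 at 2.59 and Rnf225 at 1.91, and not all of the 92 are named here. The adjusted p of the genes named here ran from 0.0036 for Ddit3 to 0.0487 for Dnaja1 (limma). Only 2 control arrays stand behind the 10 h control value.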

How the results depend on the processing

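Without any single array, the number of called genes ran from 515 to 1197, of rises from 199 to 441 and of falls from 316 to 756. With the replicate block as well, they ran from 1214 to 2085 (2028 without the first 10 h array), rises from 493 to 719 (716 without the first 4 h array) and falls from 721 to 1369 (1309 without the first 10 h array). In the difference from control cells the range was 12 to 180, and the 12 came from leaving out the first 10 h control array. Over the NCFM arrays alone the range was 24 to 180. With the block only NCFM arrays were left out, and the range was 156 to 671. The block counts were 241, 185 and 416 without the second 4 h, second 10 h and first 10 h NCFM array. The replicate block itself gave 2291 calls (899 rises, 1392 falls) and 457 in the difference, and changed no call of the 155 called genes examined. Fitted on the groups compared alone, 699 genes were called (238 rises, 461 falls). Spike-in centring gave 1745 (262 and 1483) and 586 in the difference, array weights 2720 (1112 and 1608) and 419, arrays 2 and 3 alone 2552 (858 and 1694) and 309. The groups compared with the block gave 400 in the difference, and an intensity trend with robust variance 55. An adjusted p under 0.01 left 418 (155 and 263) and 7, and a minimum change of 1 on the log2 scale 186 (77 and 109) and 42. All probe sets gave 1757 calls with 1121 falls. In control cells limma called 0 to 3 genes without any single array, 3 without the second 10 h array. None of the 155 called genes changed direction under any setting, and 93 stayed called with each single array left out. List medians were less steady. Of 49, 33 moved under at least 1 setting by more than the standard deviation of their medians in the 3 same-number pairs. Without single arrays the sign turned for Cxcl10 (-0.18 to 0.024, with the block up to 0.17 and 0.10), Il12b (8.99e-05) and Ptgs2 (-0.35 to 0.19, with the block 0.29), none of which was called. The cause was not tested. With dim genes left out, the B cell and NK cell lists had no gene left and so no median. Brightness near background limits the dim genes.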

Other observations

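Growth arrest and cell death genes changed in small numbers. Of 17 genes of the p53 and growth arrest list, Gadd45g (1.59), Cdkn1b (0.99), an inhibitor of cyclin-dependent kinases, and Gadd45b (0.65) rose and Plk2 fell by 0.94. Cdkn1b lost its call without any array but the first 4 h array (adjusted p up to 0.139), Gadd45b without any but the second 4 h array (up to 0.104) and Plk2 without the second or the third array of either time (up to 0.0954). Of 16 apoptosis and survival genes (2 rises and 2 falls with the block) Mlkl, the executor of necroptosis, rose, by 1.00 (adjusted p = 0.00701, limma). Over all genes 6.28% were called, and 1 call among 16 genes is near that share.

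Of 21 lysosome genes (3 rises and 2 falls with the block) the protease Ctsk rose, by 0.94, a call lost without the first or second 4 h or second or the third 10 h array (up to 0.106). Of 14 antioxidant genes (1 rise and 2 falls with the block) Txn1, thioredoxin, rose, by 0.99, a call lost without any 10 h array (up to 0.145). In both lists the single call is near the 6.28% called over all genes. Among 22 myeloid transcription factors Batf rose and Cebpd and Ahr fell, and the block fit called 1 rise and 5 falls. Ahr, the aryl hydrocarbon receptor, fell by 0.65, a call lost without the first or the third 4 h or second or the third 10 h array (up to 0.126). Of 17 metalloprotease, coagulation and matrix genes Mmp8, F3 and Edn1 fell and none rose (4 and 1 with the block), with 1 fall left without the third 4 h, second 10 h or the third 10 h array. None of 10 alpha arrestins and metabolic sensors was called in the limma fit, against 6.28% of all genes. At an unadjusted p under 0.05 in that fit 1 was higher and 1 lower, and the block fit called 2 falls.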
